A study of Mus musculus with 21 samples.

Results

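The subject here is a set of 10 genes known from basophils and mast cells, Fcer1a, Ms4a2, Fcer1g, Cpa3, Cma1, Mcpt8, Prss34, Gzmb, Hdc and Csrp3, picked by name from a deposited table of 47643 genes. Each was found in the table once by its identifier, and their levels were followed over 21 RNA-seq libraries of 7 mouse bone marrow progenitor populations. The populations were sorted by flow cytometry from adult mice of the strain given as C57/B6, with no treatment and no engineered allele named for these samples. All were lineage-negative, SCA-1-negative and C-KIT-positive cells that expressed CD34, and common myeloid progenitors (CMPs) lacked CD16/32 whereas granulocyte-monocyte progenitors (GMPs) carried it. Bulk CMPs and bulk GMPs were taken without regard to the surface marker CD62L. CMPs were also sorted into CD62L-neg and CD62L-high CMPs, and GMPs into CD62L-neg, CD62L-int and CD62L-high GMPs, with 3 libraries for each population. The sample labels write CD62L-low for the CD62L-neg CMPs and for the CD62L-int GMPs. The study asked whether CD62L divides these progenitors into cells of different maturity and potential, and each comparison below contrasts 2 of its sorted populations. It was not stated whether the 3 libraries of a population came from separate mice, so p-values measure the spread between these libraries, which may be technical.

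Basophils and mast cells carry the high-affinity IgE receptor, FcεRI, which is built of an alpha chain that binds IgE (Fcer1a), a beta chain that amplifies the signal (Ms4a2) and a gamma chain that carries the signal (Fcer1g). The gamma chain is shared with activating IgG receptors such as CD16, so that neutrophils, monocytes and macrophages use it too. Crosslinked receptors make the cells release granules that hold histamine, made by histidine decarboxylase (Hdc), and proteases. Carboxypeptidase A3 (Cpa3) is common to the progenitors of both cell types, Mcpt8 and Prss34 encode proteases typical of mouse basophils, and Cma1 encodes a chymase of connective tissue mast cells. Granzyme B (Gzmb) is best known from cytotoxic lymphocytes and is also found in mast cells, and Csrp3 encodes a LIM domain protein known from striated muscle.

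The promoters of these genes were taken from RefSeq on GRCm38.p6, and all 10 genes were matched, Csrp3 with 2 start sites. In the 250 bases before each start, 3 motifs were searched on both strands, namely GATAA, the core bound by GATA factors, CATGTG, an E-box form bound by MITF, and TTCNNNGAA, the core bound by STAT factors. GATAA or its reverse TTATC was present in 5 of 10 genes, against 22.6% of 32841 promoters of the same length. CATGTG was present in 3 of 10 genes against 12.3% of promoters, and TTCNNNGAA in 0 of 10 against 7.02%. A gene was counted if any of its start sites had the motif, whereas the percentages are of single promoters. Csrp3 held CATGTG at only 1 of its 2 start sites. A match is only a run of letters and no binding was measured. The 5 promoters with GATAA are shown because their genes were all highest in 1 population, and the promoter of Fcer1g, which held none of the motifs, because it ran the other way. Mcpt8, Hdc and Csrp3 were highest in that same population without GATAA, and Mcpt8 and Hdc held none of the 3 motifs. Gzmb held none of them either, so the promoters shown are a selection. Bases are lower case, and capitals mark GATAA and CATGTG on either strand, whose matches do not overlap in these promoters. Cpa3 is at chr3:20242182-20242431 and Ms4a2 at chr19:11623720-11623969. Fcer1a is at chr1:173227230-173227479, Cma1 at chr14:55944676-55944925 and Fcer1g at chr1:171234350-171234599, all of these on the minus strand. Prss34 is at chr17:25298144-25298393 on the plus strand.
Cpa3: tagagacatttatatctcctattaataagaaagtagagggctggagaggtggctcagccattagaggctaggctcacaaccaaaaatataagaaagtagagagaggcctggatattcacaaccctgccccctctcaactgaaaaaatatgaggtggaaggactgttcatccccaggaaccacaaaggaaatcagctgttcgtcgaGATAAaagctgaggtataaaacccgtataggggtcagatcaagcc
Ms4a2: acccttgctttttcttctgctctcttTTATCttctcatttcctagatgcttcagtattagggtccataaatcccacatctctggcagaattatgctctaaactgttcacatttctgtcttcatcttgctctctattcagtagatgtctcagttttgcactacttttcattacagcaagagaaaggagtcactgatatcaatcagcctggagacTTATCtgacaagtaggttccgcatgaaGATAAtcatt
Fcer1a: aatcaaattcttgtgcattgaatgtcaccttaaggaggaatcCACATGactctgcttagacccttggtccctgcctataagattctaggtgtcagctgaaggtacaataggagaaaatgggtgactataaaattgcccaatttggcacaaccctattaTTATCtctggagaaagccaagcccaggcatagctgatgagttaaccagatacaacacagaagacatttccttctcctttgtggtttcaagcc
Cma1: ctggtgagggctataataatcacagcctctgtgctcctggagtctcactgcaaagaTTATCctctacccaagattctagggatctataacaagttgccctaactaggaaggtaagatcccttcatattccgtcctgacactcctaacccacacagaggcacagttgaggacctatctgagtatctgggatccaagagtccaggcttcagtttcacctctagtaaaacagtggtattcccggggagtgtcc
Prss34: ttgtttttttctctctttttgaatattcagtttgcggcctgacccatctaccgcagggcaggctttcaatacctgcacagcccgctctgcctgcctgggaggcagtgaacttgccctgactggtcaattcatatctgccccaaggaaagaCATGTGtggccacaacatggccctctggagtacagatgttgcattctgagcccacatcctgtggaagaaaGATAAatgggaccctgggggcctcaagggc
Fcer1g: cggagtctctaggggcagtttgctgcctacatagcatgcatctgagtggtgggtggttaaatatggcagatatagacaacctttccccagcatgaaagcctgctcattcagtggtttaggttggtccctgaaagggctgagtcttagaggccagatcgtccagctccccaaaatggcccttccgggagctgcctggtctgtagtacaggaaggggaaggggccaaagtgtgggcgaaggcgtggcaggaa
Ms4a2 held the motif at 3 places, and in Cpa3 and Prss34 it began 45 and 30 bases before the start.

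Libraries held 6145834 to 15263573 counts, and values are given as CPM, the counts scaled to a common library size with TMM factors. Bulk CMP replicate 2 stood apart, with 61.0% of its counts in the gene models Gm23935, Gm26917 and Gm42418, and CD62L-high GMP replicate 1 had 41.1% there. In the other libraries they took 22.4% to 31.7%. The methods of the study say that a bulk CMP sample was excluded for its low mapping rate, without saying which. All 3 bulk CMP libraries of the table were used here. All 10 basophil and mast cell genes passed the filter on low counts that left 14801 genes for testing. Tests are the quasi-likelihood tests of edgeR, with Benjamini-Hochberg adjustment over these 14801 genes. Called means here that the adjusted p was below 0.05 with a difference of more than 2-fold. Shares over all genes depend on bulk CMP replicate 2. Without it, more genes were called in every comparison but bulk GMPs against bulk CMPs, where fewer were. Between CD62L-high and CD62L-int GMPs, 49 higher and 131 lower of 14801 genes became 68 and 195 of 15445. For the difference of the CD62L effect between GMPs and CMPs, 341 and 747 became 604 and 1138.

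CD62L-neg GMPs had the highest mean level of 8 of the 10 genes, and the exceptions were Fcer1g and Gzmb. The 10 genes together summed to 972 to 1546 CPM in the libraries of CD62L-neg GMPs, 306 to 318 in bulk GMPs, 193 to 213 in CD62L-int GMPs and 158 to 287 in CD62L-high GMPs. In CMPs the sums were 143 to 181 CPM in bulk, 189 to 246 in CD62L-neg and 97.5 to 113 in CD62L-high cells. Most of the sums in CD62L-int and CD62L-high GMPs came from Fcer1g and Hdc. Their means were 76.8 and 109 CPM in CD62L-int GMPs and 161 and 43.5 in CD62L-high GMPs, beside mean sums of 205 and 207. In CD62L-high CMPs, Fcer1g had a mean of 61.9 CPM beside a mean sum of 104. In sorted cells measured in bulk, fewer cells of a type and less RNA per cell cannot be told apart.

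**Figure D1:**
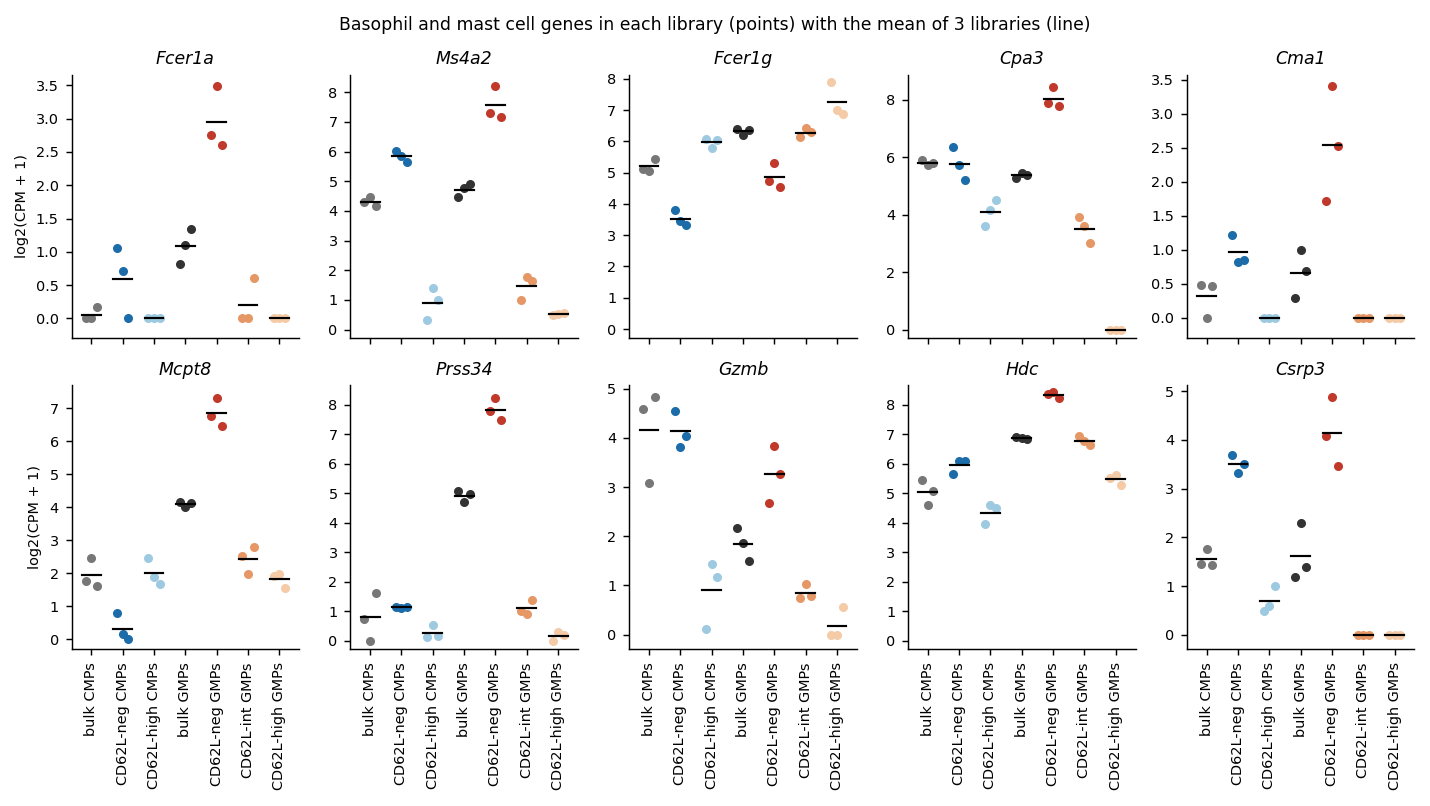
Level of each of the 10 genes as log2(CPM + 1) on the vertical axis in every library (points, 3 a population) of the 7 populations, with the mean of the 3 as a black line. The CD62L-neg GMPs in red are highest for every gene but Fcer1g, which is highest in CD62L-high GMPs, and Gzmb, which is highest in bulk CMPs.

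The receptor chains did not run together. Ms4a2, the beta chain, had 156, 294 and 144 CPM in the 3 libraries of CD62L-neg GMPs and 64.4, 56.3 and 49.5 in CD62L-neg CMPs. It had 20.9, 26.2 and 29.0 CPM in bulk GMPs and 18.5, 21.2 and 17.0 in bulk CMPs. In the remaining populations, Ms4a2 had 1.01, 2.44 and 2.10 CPM in CD62L-int GMPs, 0.237, 1.65 and 0.989 in the CD62L-high CMPs and 0.408, 0.445 and 0.469 in CD62L-high GMPs. Both CD62L-neg populations thus stood above all others without overlap, and CD62L-int GMPs, CD62L-high CMPs and CD62L-high GMPs lay below bulk CMPs without overlap. Fcer1a, the alpha chain that binds IgE, was far scarcer, with 5.73, 10.2 and 5.05 CPM in CD62L-neg GMPs and 0.757, 1.16 and 1.53 in bulk GMPs. Its counts elsewhere were 14 in CD62L-neg CMPs, 8 in CD62L-int GMPs and 1 in bulk CMPs over 3 libraries each. Fcer1a had 0 counts in CD62L-high CMPs and CD62L-high GMPs, which allows up to 0.0673 and 0.0738 CPM for 3 counts over the pooled libraries.

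Fcer1g, the gamma chain, had 239, 126 and 117 CPM in CD62L-high GMPs, 83.2, 72.1 and 82.0 in bulk GMPs and 68.7, 84.1 and 77.6 in CD62L-int GMPs. In CMPs it had 66.8, 54.5 and 64.2 CPM in CD62L-high, 33.4, 32.3 and 42.3 in bulk and 12.96, 9.96 and 8.92 in CD62L-neg cells. CD62L-neg GMPs had 25.8, 38.3 and 22.2 CPM of Fcer1g, between the CD62L-neg and CD62L-high CMPs. Its lowest mean levels were therefore in the populations where Ms4a2 was highest. Per kilobase of exon, Ms4a2 was 2.09 ± 0.265 (SD, n = 3, as for all means here) times the level of Fcer1g in CD62L-neg GMPs and 1.67 ± 0.114 times in CD62L-neg CMPs. The same ratio was 0.1002 ± 0.0192 in bulk GMPs, 0.00732 ± 0.00242 in CD62L-int GMPs and 0.000957 ± 0.000375 in CD62L-high GMPs. Between alpha and beta chain, the ratio Fcer1a to Ms4a2 per kilobase was 0.1001 ± 0.00307 in CD62L-neg GMPs and 0.125 ± 0.0233 in bulk GMPs, and 0.0265 ± 0.0243 in CD62L-neg CMPs.

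Cpa3, the carboxypeptidase of both lineages, had 236, 349 and 217 CPM in CD62L-neg GMPs and 37.7, 42.8 and 40.6 in bulk GMPs. It had 80.9, 52.0 and 36.0 CPM in CD62L-neg CMPs, 58.7, 51.7 and 54.2 in bulk CMPs and 11.1, 17.0 and 21.95 in CD62L-high CMPs. CD62L-int GMPs had 14.02, 11.1 and 7.09 CPM of Cpa3. In CD62L-high GMPs it had 0 counts in all 3 libraries, which allows up to 0.0738 CPM, so that Cpa3 fell out of detection along the GMP fractions while CD62L-high CMPs still held 763 counts of it.

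The basophil proteases had another distribution than Cpa3. Mcpt8 had 109, 160 and 88.0 CPM in CD62L-neg GMPs, 17.0, 15.0 and 16.4 in bulk GMPs and 4.76, 2.96 and 5.91 in CD62L-int GMPs. CD62L-high GMPs had 2.78, 2.97 and 1.94 CPM of Mcpt8. Among CMPs it had 4.58, 2.73 and 2.23 CPM in CD62L-high, 2.41, 4.48 and 2.09 in bulk and 0.727, 0.128 and 0 in CD62L-neg cells, the last with 7 counts in all. Mcpt8 was thus lowest in the CMP fraction where Ms4a2 was highest. Prss34 had 221, 302 and 176 CPM in CD62L-neg GMPs and 32.3, 24.7 and 30.6 in bulk GMPs. In the other 5 populations Prss34 had between 0 and 2.09 CPM, with mean levels of 1.19 CPM for CD62L-neg CMPs, 1.15 for CD62L-int GMPs, 0.920 for bulk CMPs, 0.216 for the CD62L-high CMPs and 0.119 for the CD62L-high GMPs.

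Cma1, the mast cell chymase, had 2.29, 9.59 and 4.73 CPM in CD62L-neg GMPs and 1.33, 0.766 and 0.811 in CD62L-neg CMPs. It had a mean of 0.614 ± 0.388 CPM in bulk GMPs and 0.265 ± 0.229 in bulk CMPs, and 0 counts in the CD62L-int GMPs and in both CD62L-high populations. The mature mast cell list of Mcpt1, Mcpt2, Mcpt4, Tpsb2, Tpsab1, Mrgprb2 and Mrgprb1 summed to 1.60 to 2.28 CPM in CD62L-neg GMPs, with Mcpt1, Mcpt2, Tpsab1, Mrgprb2 and Mrgprb1 at 0 there, and to at most 0.598 CPM in any other library. Cma1, Mcpt8 and Gzmb lie with other chymase and granzyme genes in a stretch of 320.81 kb on chromosome 14. Of the 15 protein-coding genes annotated there, 8 had no count in any library and 4 passed the filter, namely Cma1, Mcpt8, Gzmb and the neutrophil protease gene Ctsg. Ctsg had 969.6 ± 51.0 CPM in CD62L-neg GMPs, 808 ± 31.4 in CD62L-int GMPs and 569.7 ± 15.0 in CD62L-high GMPs, so that neighbours in this stretch differed in how they ran along the GMP fractions. Reads of near-identical chymase, granzyme and tryptase genes may have been split or lost in counting, which makes the values of Cma1, Mcpt8, Gzmb and Prss34 less certain.

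Hdc, the enzyme of histamine synthesis, was counted in every library. It had 326, 342 and 297 CPM in CD62L-neg GMPs, 117, 117 and 114 in bulk GMPs, 123, 108 and 97.4 in CD62L-int GMPs and 44.6, 48.1 and 37.8 in CD62L-high GMPs. In CMPs Hdc had 49.4, 67.4 and 66.5 CPM in CD62L-neg, 42.5, 23.3 and 32.8 in bulk and 14.3, 23.1 and 21.5 in CD62L-high cells. The 3 GMP fractions did not overlap, and neither did the CD62L-neg and CD62L-high CMPs.

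Gzmb and Csrp3 overlapped between CD62L-neg CMPs and CD62L-neg GMPs. Gzmb had 23.0, 7.47 and 27.3 CPM in bulk CMPs, 22.4, 13.1 and 15.4 in CD62L-neg CMPs and 5.43, 13.2 and 8.65 in CD62L-neg GMPs, which overlapped. It had at most 3.48 CPM in any library of bulk GMPs, 1.71 in CD62L-high CMPs, 1.05 in CD62L-int GMPs and 0.469 in CD62L-high GMPs. Of 12 T and NK cell markers, Cd3d, Cd3e, Cd3g, Ncr1, Gzma and Tbx21 had no count in CD62L-neg CMPs, CD62L-neg GMPs or bulk CMPs. The list of 12 summed to 41.9 to 47.8 CPM in CD62L-neg CMPs, 135 to 146 in CD62L-neg GMPs and 75.9 to 82.0 in CD62L-int GMPs. Nkg7 alone had a mean of 43.7, 139.9 and 78.3 CPM in these populations, in that order. In bulk CMPs, where the mean of Gzmb was highest, the list summed to 14.9 to 49.6 CPM. There 6 of the 12 had counts, namely Cd247, Klrb1c, Klrd1, Prf1, Nkg7 and Eomes. Csrp3 had 15.9, 28.3 and 10.1 CPM in CD62L-neg GMPs and 11.9, 8.94 and 10.3 in CD62L-neg CMPs, which overlapped, and 0 counts in CD62L-int and CD62L-high GMPs. Its means were 2.28 ± 1.45 CPM in bulk GMPs, 1.94 ± 0.389 in bulk CMPs and 0.631 ± 0.316 in CD62L-high CMPs. A striated muscle list of 8 genes summed to between 0 and 3.30 CPM in any library, with Myl1, Myh6 and Myl2 at 0 in all populations, against up to 28.3 CPM for Csrp3 alone.

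Per kilobase of exon, the order of the genes differed between the CD62L-neg populations. In CD62L-neg GMPs, Prss34 had 191 ± 52.2 CPM per kb, Cpa3 176 ± 47.0, Mcpt8 119 ± 37.1, Ms4a2 70.4 ± 29.7 and Hdc 50.3 ± 3.53, and Fcer1g followed with 32.9 ± 9.64. In CD62L-neg CMPs, Cpa3 came first with 37.1 ± 15.0 CPM per kb, followed by Ms4a2 with 20.2 ± 2.66, Fcer1g with 12.1 ± 2.40, Gzmb with 11.8 ± 3.36 and Hdc with 9.56 ± 1.59. Prss34 and Mcpt8 were near the end of that order, with 0.977 ± 0.0307 and 0.285 ± 0.389 CPM per kb. Within each population, neighbours in the order such as Prss34 and Cpa3, or Fcer1g and Gzmb, lay within their spread.

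In GMPs sorted by CD62L, 9 of the 10 genes were lower and Fcer1g was higher in CD62L-high than in CD62L-neg GMPs, and all 10 were called, against 10.5% of all genes tested (4.49% higher and 6.01% lower). None of the 10 overlapped between the 2 populations, and 32.2% of all genes did not overlap either. Cpa3 was at least 3625-fold lower in CD62L-high GMPs, with 10239 counts against 0 and the bound set by 3 counts over the group. Csrp3, Fcer1a and Cma1 were also at 0 there and were at least 246-fold, 94.9-fold and 74.7-fold lower. Of the genes still counted, Prss34 had a log2 fold change of -10.77 ± 0.49 (SE, edgeR adjusted p = 5.53e-13), on 8925 counts against 5. Ms4a2 was 437-fold, Gzmb 50.7-fold and Mcpt8 46.4-fold lower. Hdc, present in all libraries, was 7.39-fold lower (log2 fold change -2.89 ± 0.20, edgeR adjusted p = 2.14e-10). Fcer1g was 5.58-fold higher (log2 2.48 ± 0.24, edgeR adjusted p = 4.04e-08). The median log2 fold change of the 10 genes was -8.90 as fitted and -6.40 with the 4 genes at 0 set to their bound, against -0.04 over all genes. Single libraries moved the values of Prss34 and Gzmb, to -11.45 without CD62L-high GMP replicate 2 and to -9.71 without CD62L-high GMP replicate 3, which held all 7 Gzmb counts, and the fitted value of Cma1 from -9.02 to -8.35 without CD62L-neg GMP replicate 2.

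CD62L-int GMPs, which carry less CD62L than CD62L-high GMPs, had all 10 genes called against CD62L-neg GMPs in the same directions, 9 lower and Fcer1g higher, where 4.32% of all genes were called (1.84% higher and 2.48% lower). None of the 10 overlapped, beside 24.9% of all genes without overlap. Prss34 was 197-fold, Ms4a2 108-fold, Fcer1a 36.2-fold, Mcpt8 25.9-fold, Cpa3 24.9-fold, Gzmb 11.2-fold and Hdc 2.94-fold lower in CD62L-int GMPs. Csrp3 and Cma1 were at 0 and at least 251-fold and 76.5-fold lower. Fcer1g was 2.67-fold higher, with a log2 fold change of 1.42 ± 0.23. The call of Fcer1a rested on 268 counts against 8 and was lost without CD62L-neg GMP replicate 2 (edgeR adjusted p = 0.0584) or CD62L-int GMP replicate 2 (edgeR adjusted p = 0.0520). Its fitted log2 fold change went from -5.18 to -9.34 without CD62L-int GMP replicate 3, and that of Cma1 from -9.02 to -8.35 without CD62L-neg GMP replicate 2. This comparison and the one before it share the CD62L-neg GMP libraries and are not independent.

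Between CD62L-high and CD62L-int GMPs, Cpa3, Prss34, Ms4a2 and Hdc were lower and Fcer1g was higher in CD62L-high GMPs, 5 of 10 genes against 1.22% of all genes (0.331% higher and 0.885% lower). Of the 10, 6 did not overlap, beside 18.4% of all genes. Cpa3 had 445 counts in CD62L-int GMPs and 0 in CD62L-high GMPs, at least 145-fold lower. Hdc was 2.51-fold lower (log2 -1.33 ± 0.19, edgeR adjusted p = 0.000252). The other calls were less firm, since Prss34 (8.84-fold, edgeR adjusted p = 0.0147), Ms4a2 (4.04-fold, edgeR adjusted p = 0.0386) and Fcer1g (2.09-fold, edgeR adjusted p = 0.0116) were lost when only these 6 libraries were fitted and when single libraries of the pair were left out. Without CD62L-high GMP replicate 1, which had the highest value and the large share of counts in 3 gene models, the log2 fold change of Fcer1g was 0.66 (edgeR adjusted p = 0.125). That of Prss34 was -3.14, and -3.83 without CD62L-high GMP replicate 2. Mcpt8 and Gzmb were not called, with log2 fold changes of -0.84 ± 0.36 and -2.18 ± 0.92, and Gzmb passed with no filter on low counts (edgeR adjusted p = 0.0353). Fcer1a, with 8 counts against 0, was not called either, and Cma1 and Csrp3 were at 0 in both.

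**Figure D2:**
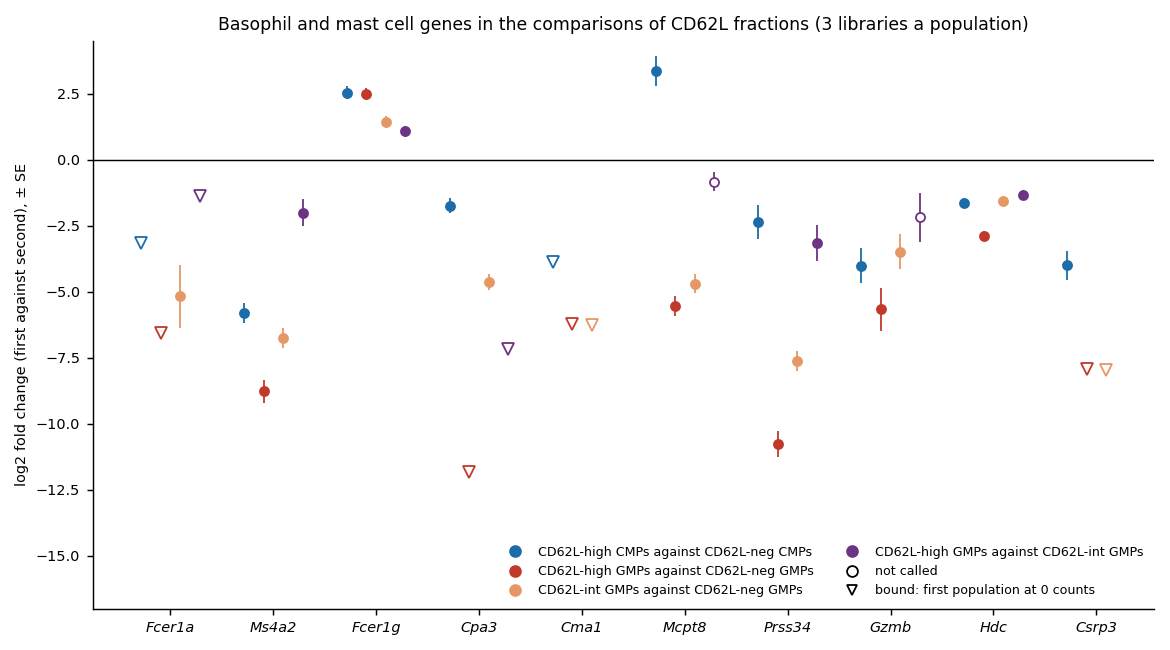
Log2 fold change with its SE (vertical axis) of each gene in 4 comparisons of CD62L fractions; filled circles are called, open circles are not, and open triangles are bounds where the first population had 0 counts. Fcer1g lies above 0 in all 4 comparisons and Mcpt8 above 0 in CMPs alone; no point is drawn for Cma1 and Csrp3 between CD62L-high and CD62L-int GMPs, where both populations had 0 counts.

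In CMPs, 8 of the 10 genes were lower and Mcpt8 and Fcer1g were higher in CD62L-high than in CD62L-neg CMPs. All 10 were called, against 10.5% of all genes (5.62% higher and 4.84% lower). Only Fcer1a overlapped between the 2 populations, and 39.0% of all genes did not overlap. Ms4a2 was 56.5-fold lower (log2 -5.82 ± 0.38, edgeR adjusted p = 6.90e-11), Gzmb 16.2-fold and Csrp3 16.0-fold. Cpa3 was 3.36-fold and Hdc 3.10-fold lower, the smallest differences of this set. Mcpt8 was 10.3-fold higher in CD62L-high CMPs, on 137 counts against 7 (log2 3.36 ± 0.58, edgeR adjusted p = 0.000140), and Fcer1g was 5.81-fold higher. Cma1 and Fcer1a were at 0 in CD62L-high CMPs and at least 14.5-fold and 8.85-fold lower, on 23 and 14 counts in CD62L-neg CMPs. Prss34 was 5.13-fold lower on 10 counts against 28. The calls of Fcer1a and Prss34 were lost without CD62L-high CMP replicate 1 (edgeR adjusted p = 0.0637 and 0.0535) or replicate 3 (0.0715 and 0.0613), and that of Fcer1a also without CD62L-high CMP replicate 2 (0.0690) or CD62L-neg CMP replicate 1 (0.0956). The 7 Mcpt8 counts of CD62L-neg CMPs lay mostly in replicate 1, without which its log2 fold change was 5.37. Without CD62L-high CMP replicate 2 it was -6.43 for Ms4a2 and -3.39 for Prss34, and without CD62L-neg CMP replicate 3 the fitted value of Fcer1a went from -5.80 to -6.40. The median log2 fold change was -3.18 as fitted and -2.75 with Cma1 and Fcer1a at their bounds, against 0.01 over all genes. The megakaryocyte and platelet list moved in the same direction, from 686 to 803 CPM in CD62L-neg CMPs to 14.7 to 21.02 in CD62L-high CMPs with all 8 genes counted in both, and its part in these differences was not tested.

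The effect of the CD62L sort was itself compared between GMPs and CMPs. The gates were unlike, since the study trisected CMPs by CD62L but took only the low and high ends of GMPs. Gate and cell type cannot be told apart in this comparison. For 6 of 10 genes, Cpa3, Mcpt8, Prss34, Csrp3, Ms4a2 and Hdc, the log2 fold change was more negative in GMPs than in CMPs. All 6 were called, against 7.35% of all genes (2.30% higher and 5.05% lower). All of them but Mcpt8 were lower in CD62L-high than in CD62L-neg cells of both types. Mcpt8 changed direction, with log2 fold changes of -5.54 ± 0.38 in GMPs and 3.36 ± 0.58 in CMPs and a difference of -8.90 ± 0.64 (edgeR adjusted p = 4.11e-09). Hdc differed least among the called genes, by -1.25 ± 0.27 (edgeR adjusted p = 0.00364). For Fcer1g the difference was -0.06 ± 0.33, and for Gzmb -1.64 ± 1.06, and neither was called. Fcer1a and Cma1 were at 0 in both CD62L-high populations and gave no value. The difference was -10.92 for Mcpt8 without CD62L-neg CMP replicate 1, and without CD62L-high CMP replicate 2 it was -2.35 for Ms4a2 and -7.38 for Prss34, all still called. For Prss34 it was -9.07 without CD62L-high GMP replicate 2.

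CD62L-neg GMPs were also compared with bulk GMPs, of which they are a part. There 7 genes were higher and Fcer1g was lower in CD62L-neg GMPs, 8 of 10 against 4.07% of all genes (1.89% higher and 2.18% lower). No gene of the 10 overlapped, beside 28.4% of all genes without overlap. Prss34 was 7.96-fold, Csrp3 7.92-fold, Ms4a2 7.81-fold, Mcpt8 7.35-fold, Cpa3 6.62-fold and Hdc 2.77-fold higher. Fcer1g was 2.75-fold lower in CD62L-neg GMPs. Fcer1a was 6.05-fold and Gzmb 3.42-fold higher without a call (edgeR adjusted p = 0.180 and 0.0842). Gzmb passed in 5 of 27 alternatives, among them DESeq2 (adjusted p = 0.0226), and Fcer1a in 1, with only the groups compared fitted (edgeR adjusted p = 0.000722). Cma1 was 8.88-fold higher at an edgeR adjusted p of 0.0498, and this call was lost in 22 of 27 alternative settings, with a log2 fold change of 3.15, and of 2.49 without CD62L-neg GMP replicate 2. For Csrp3 it was 2.99, and 3.64 without bulk GMP replicate 2. Bulk GMPs held 11.1% to 16.4% of the CD62L-neg GMP level for Cma1, Prss34, Csrp3, Ms4a2, Mcpt8, Cpa3 and Fcer1a, against 29.1% for Gzmb, 36.0% for Hdc and 275% for Fcer1g. The first 7 of these genes thus lay close together in that percentage.

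**Figure D3:**
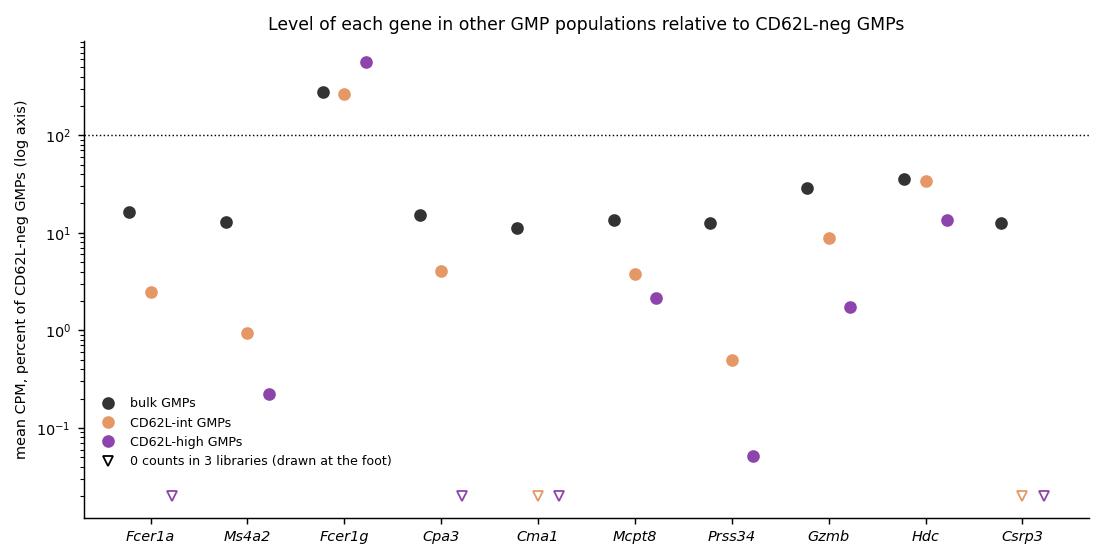
Mean CPM of each gene in bulk, CD62L-int and CD62L-high GMPs as a percentage of the mean in CD62L-neg GMPs, on a log axis, with 100% as a dotted line and open triangles at the foot for 0 counts in 3 libraries. Bulk GMPs lie at 11.1% to 16.4% for 7 genes, and Fcer1g lies above 100% in all 3 populations.

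Across the CD16/32 gate, CD62L-neg GMPs had 7 genes higher than CD62L-neg CMPs and none lower, against 12.6% of all genes called (6.49% higher and 6.11% lower). Without overlap were 8 of the 10, beside 40.5% of all genes. The basophil proteases differed most, Mcpt8 by 387-fold (log2 8.60 ± 0.50, edgeR adjusted p = 9.43e-12) and Prss34 by 194-fold (log2 7.60 ± 0.40, edgeR adjusted p = 1.61e-12). Fcer1a was 11.8-fold, Hdc 5.26-fold, Cpa3 4.75-fold, Ms4a2 3.49-fold and Fcer1g 2.70-fold higher. The call of Fcer1a was lost without CD62L-neg GMP replicate 1, 2 or 3 or CD62L-neg CMP replicate 2 or 3, with edgeR adjusted p between 0.0513 and 0.112. Without CD62L-neg CMP replicate 1, the log2 fold change was 10.60 for Mcpt8 and 4.38 for Fcer1a. Cma1 (log2 2.50 ± 0.90), Csrp3 (0.80 ± 0.46) and Gzmb (-0.90 ± 0.56) were not called, and Cma1 passed in 3 of 27 alternatives. The plot of pairs shows the same split, with Cpa3 and Ms4a2 present in CD62L-neg CMPs and Mcpt8 near 0.

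**Figure D4:**
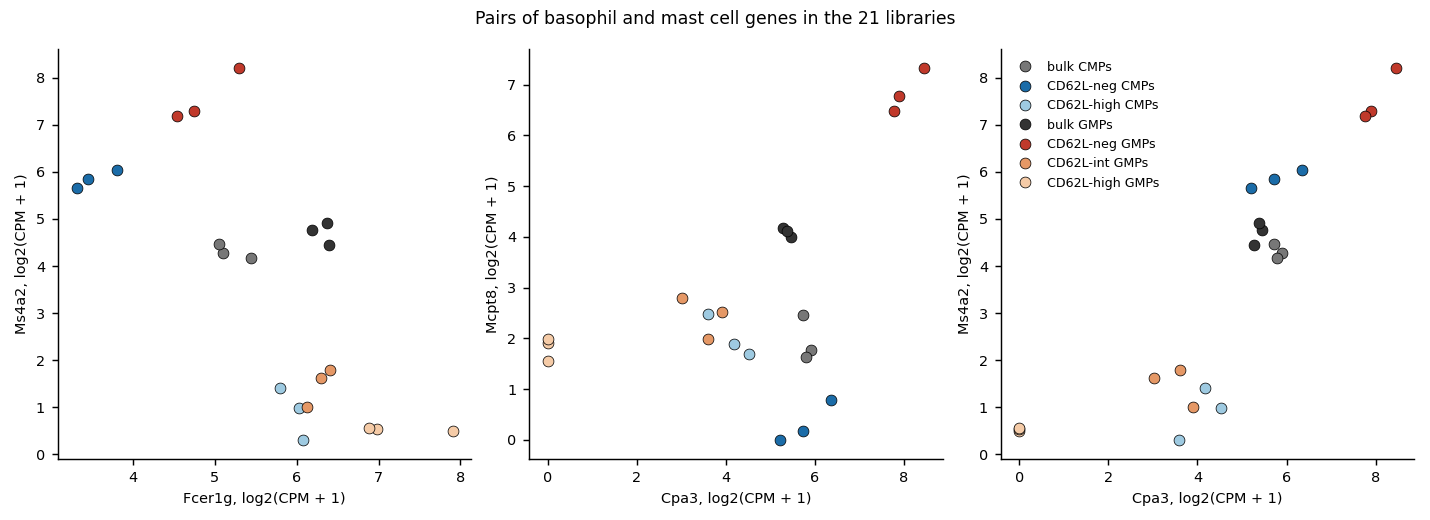
Levels as log2(CPM + 1) of Ms4a2 against Fcer1g, Mcpt8 against Cpa3 and Ms4a2 against Cpa3, each point a library and each colour a population. CD62L-neg GMPs in red are apart at the top of each panel, and CD62L-neg CMPs in dark blue hold Cpa3 with at most 0.727 CPM of Mcpt8.

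Without the CD62L sort, bulk GMPs had higher Prss34 (26.1-fold), Mcpt8 (5.83-fold), Hdc (3.48-fold) and Fcer1g (2.19-fold) than bulk CMPs and lower Gzmb (7.36-fold), 5 of 10 genes against 11.5% of all genes (4.19% higher and 7.30% lower). Libraries did not overlap for 7 of the 10, beside 35.5% of all genes. The log2 fold change of Prss34 was 4.71, and 5.97 without bulk CMP replicate 3. Cpa3 and Ms4a2 were not called, with log2 fold changes of -0.45 ± 0.27 and 0.44 ± 0.29, nor were Cma1 and Csrp3, with 1.0004 ± 1.01 and 0.26 ± 0.53. Fcer1a had 45 counts in bulk GMPs and 1 in bulk CMPs, a ratio of 21.2 with a 95% counting interval of 3.61 to 855, and was not called, though it passed in 4 of 26 alternatives. Without bulk CMP replicate 2, the library that stood apart, the same count of 5 genes was called, with log2 fold changes of 4.39 for Prss34, 2.84 for Mcpt8, 1.62 for Hdc, 1.06 for Fcer1g and -3.24 for Gzmb. Between CD62L-high GMPs and CD62L-high CMPs, 4 of 10 genes were called against 7.64% of all genes (2.53% higher and 5.11% lower). Libraries did not overlap for 4 of the 10, beside 31.2% of all genes. Fcer1g was 2.60-fold and Hdc 2.21-fold higher in the GMPs, whereas Cpa3 was at least 232-fold and Csrp3 at least 8.82-fold lower. Ms4a2 (log2 -1.15 ± 0.55), Mcpt8 (-0.30 ± 0.37), Prss34 (-0.81 ± 0.93) and Gzmb (-2.55 ± 0.89) were not called, and Fcer1a and Cma1 were at 0 in both. Gzmb passed in 5 of 26 alternatives and Ms4a2 in 1. The calls of Fcer1g and Hdc were each lost without a single library, since Fcer1g had a log2 fold change of 0.98 without CD62L-high GMP replicate 1 and Hdc of 0.95 without CD62L-high CMP replicate 1, under the fold limit.

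A wider list of 75 genes of basophil and mast cell biology was followed by role, of which 60 passed the filter and 7 had no count. Against CD62L-neg GMPs, 24 genes of this list were lower and 5 higher in CD62L-high GMPs, and 16 were lower and 0 higher in CD62L-int GMPs, beside 10.5% and 4.32% of all genes. The medians over the 60 genes were -0.26 and -0.46 on the log2 scale, against -0.04 and -0.01 over all genes. The lower genes in CD62L-high GMPs included Il1rl1, the IL-33 receptor, Slc18a2, which loads histamine into granules, the transcription factor Gata1 and the cytokine Il6. All 4 were at 0 counts there, and they were at least 489.95-fold, 399-fold, 175-fold and 54.5-fold lower than in CD62L-neg GMPs. Higher in CD62L-high GMPs were Mitf, a transcription factor of mast cells (log2 1.40 ± 0.27), the integrin Itgb7 (1.29 ± 0.20), Tnf (1.15 ± 0.35) and the adaptor Lat2 (1.14 ± 0.21). In CD62L-int GMPs, Slc18a2 and Gata1 were lower with log2 fold changes of -6.99 ± 0.56 and -6.92 ± 0.68. Cd200r3, a surface receptor of basophils and mast cells, and the tryptase Tpsb2 were at 0 counts there and at least 49.3-fold and 22.5-fold lower.

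By role, the counts are given for CD62L-high against CD62L-neg cells in GMPs and then in CMPs, beside 10.5% of all genes in each. Of all genes, 4.49% were called higher and 6.01% lower in GMPs, and 5.62% and 4.84% in CMPs. Between CD62L-high and CD62L-neg GMPs, 5 of 12 transcription factors were lower and 1 higher, and 4 of 8 genes of histamine and lipid mediators were lower and 0 higher. Of 18 receptors and surface proteins tested, 8 were lower and 1 higher, of 6 cytokines and chemokines 3 were lower and 1 higher, and of 3 granule genes 2 were lower. Of 13 genes of FcεRI signalling, 2 were lower and 2 higher, with a median log2 fold change of 0.03. Of 12 granule protease and proteoglycan genes, 9 did not pass the filter, among them Mcpt1, Mcpt2, Mcpt4 and Tpsab1. In CMPs, 6 of 12 transcription factors were lower and 2 higher in CD62L-high cells. Of 8 genes of histamine and lipid mediators, 4 were lower and 1 higher. Of 18 receptors and surface proteins, 5 were lower and 3 higher, and of 6 cytokines and chemokines 1 was lower and 2 higher. Of 13 genes of FcεRI signalling, 1 was lower and 0 higher, and none of the 3 granule genes tested was called.

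In CMPs sorted by CD62L, 17 genes of the wider list were lower and 8 higher in the CD62L-high cells, beside 10.5% of all genes (5.62% higher and 4.84% lower), and the median was -0.51 against 0.01 over all genes. Il1rl1 had 1117 counts in CD62L-neg and 3 in CD62L-high CMPs, a ratio of 706.5 with a 95% counting interval of 241 to 3431. Gata1 had a log2 fold change of -7.31 ± 0.57 and its cofactor Zfpm1 of -4.42 ± 0.30, and Il6 was at 0 and at least 12.6-fold lower. Higher in CD62L-high CMPs were the chemokines Ccl3 (log2 3.14 ± 0.43) and Ccl4 (1.93 ± 0.37), and the receptor genes Il4ra (1.75 ± 0.22) and Csf2rb (1.64 ± 0.25). Gata1 and Zfpm1 also belong to erythroid and megakaryocyte cells.

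In CD62L-neg against bulk GMPs, 11 genes of the wider list were higher and 3 lower, beside 4.07% of all genes. Among the higher were the adaptor Lat (log2 2.95 ± 0.59), the lipoxygenase Alox5 (2.77 ± 0.41), Il1rl1 (2.63 ± 0.55) and Gata1 (2.27 ± 0.44). The lower ones were Tnf, Ccl3 and Mitf. Against CD62L-neg CMPs, 12 were higher and 9 lower in CD62L-neg GMPs, beside 12.6% of all genes. Cd200r3 had 136 counts in CD62L-neg GMPs and 1 in CD62L-neg CMPs, a ratio of 83.4 with a 95% counting interval of 14.7 to 3319. Il18r1, a chain of the IL-18 receptor, had 0 counts against 15 and was at least 8.15-fold lower. Cd63, a granule membrane protein, was higher by 3.05 ± 0.27, Csf1 by 2.48 ± 0.31 and Alox5 by 2.25 ± 0.41 on the log2 scale, whereas Zfpm1 (-4.23 ± 0.30), Gata1 (-2.33 ± 0.41) and the kinase Fyn (-1.90 ± 0.20) were lower. In the other comparisons, 25 genes of the list were called between bulk GMPs and bulk CMPs (6 higher, 19 lower, beside 11.5% of all genes), 16 between CD62L-high GMPs and CD62L-high CMPs (4 higher, 12 lower, beside 7.64%) and 4 between CD62L-high and CD62L-int GMPs (2 higher, 2 lower, beside 1.22%). Without bulk CMP replicate 2, 21 genes of the list were called in the bulk comparison. Between CD62L-high and CD62L-int GMPs, the 2 higher genes were Itgb7 and Lat2, and the 2 lower were Cd63 and Gata2.

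Over the 21 libraries, the genes most like each of the 10 in log2(CPM + 1) differed, with some of them shared. They are given here by Pearson's r as a description, among 9287 genes with a mean of at least 5 CPM. Prss34 was closest to Epx (r = 0.978), Prg2 (0.957) and Csf1 (0.946), and Mcpt8 to Prg2 (0.953), Prg3 (0.948) and Edem3 (0.946). Epx, Prg2 and Prg3 are genes of eosinophil granules. Csf1 was also among the nearest of Fcer1a and Cma1, and Edem3 among those of Fcer1a. Cpa3 was closest to Hip1r (0.975), Slc7a8 (0.955) and Fut8 (0.9503). Ms4a2 was closest to Cdh1 (0.968), Alox5 (0.945) and Zbtb16 (0.932), and Csrp3 and Cma1 both had Lmo4 and Alox5 among their nearest (0.906 to 0.919). Hdc was closest to Irak3 (0.957), Cd63 (0.930) and Srgn (0.926), and Gzmb to Cd55 (0.942), Apoe (0.937) and Slc18a2 (0.928). Fcer1a was closest to Edem3 (0.943), Csf1 (0.935) and Epx (0.910). Fcer1g was closest to Akr1a1, Coro1a and Lgals1 (0.975 to 0.978). Libraries of 1 population share their sort, so these values rest largely on the differences among 7 populations.

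Among the GMP populations, the eosinophil genes were highest where Mcpt8 and Prss34 were highest. In CMPs the sum of the eosinophil list and the level of Prss34 were lower and Mcpt8 was higher in CD62L-high than in CD62L-neg cells. Epx, Prg2 and Prg3 did not follow that sum. Their means were 0.522, 1.85 and 0.222 CPM in CD62L-high CMPs and 0, 0.657 and 0 in CD62L-neg CMPs. None of these differences was called, and the fall of the sum lay in other genes of the list. The eosinophil list of 9 genes summed to 1266 to 1941 CPM in CD62L-neg GMPs with all 9 counted, 131 to 146 in bulk GMPs, 18.4 to 18.6 in CD62L-int GMPs and 3.51 to 10.6 in CD62L-high GMPs. In CMPs it summed to 31.97 to 38.05 CPM in CD62L-neg cells, with Epx, Prg3, Ear1 and Ear6 at 0, 12.3 to 22.7 in bulk cells and 3.83 to 10.3 in CD62L-high cells. Prg2, the major basic protein of eosinophils, had 1062 ± 250.5 CPM in CD62L-neg GMPs and Epx, the eosinophil peroxidase, 363 ± 62.3, against 0.657 ± 0.666 and 0 in CD62L-neg CMPs. In CD62L-high against CD62L-neg GMPs, the log2 fold change was -10.01 ± 0.67 for Epx and -9.55 ± 0.79 for Prg2, beside -10.77 ± 0.49 for Prss34. The part of the eosinophil genes in the differences of Mcpt8 and Prss34 was not tested.

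**Figure D5:**
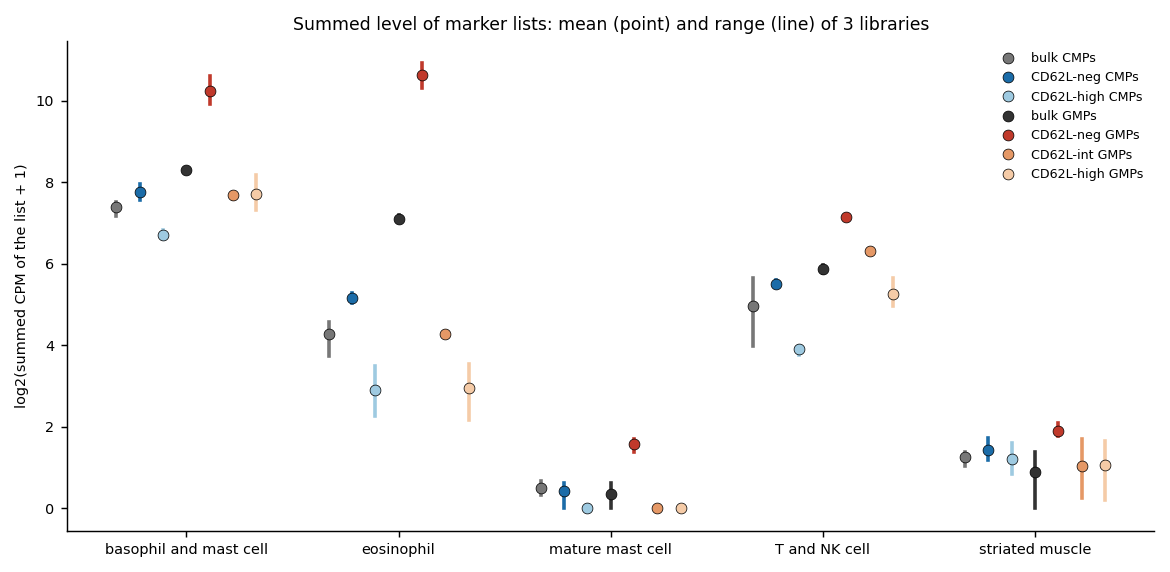
Summed CPM of 5 marker lists, as log2(sum + 1), in the 7 populations, with the mean as a point and the range of 3 libraries as a line. The eosinophil list is highest in CD62L-neg GMPs, where 8 of the 10 basophil and mast cell genes are highest too, and the mature mast cell and striated muscle lists stay at or below 3.30 CPM. The basophil and mast cell sum includes Fcer1g, which is highest in CD62L-high GMPs and makes up most of the sum there.

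Within the CD62L-neg GMPs, replicate 2 had the highest level of all 10 genes. Its values were 2.73 times the mean of the other libraries for Cma1, 2.18 times for Csrp3, 1.96 times for Ms4a2, 1.54 times for Cpa3 and 1.10 times for Hdc, with the other 5 genes between. Its total count of 12503320 lay between those of the other CD62L-neg GMP libraries. Without it, all 10 genes were still called between CD62L-high and CD62L-neg GMPs.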

How the data were processed

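RNA-seq libraries of 21 samples, 3 for each of 7 sorted populations, were analysed from raw read counts per gene that the authors deposited. The authors' processing used bcl2fastq, Trim Galore, HISAT2 and HTSeq on mm10, with versions not given in the sources used here. The strand setting of the counting was not stated, and the library kit is named differently by the methods and by the labels, so reads of a gene and of an overlapping antisense gene may not be told apart. Gene names and exon lengths were taken from GENCODE vM21, where 47224 of 47643 identifiers (99.1%) matched. Totals of 6145834 to 15263573 counts set the precision, and counting intervals cover counting error only.

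Counts were tested in R 4.3.3 with edgeR 4.0.16 (TMM factors, filterByExpr, quasi-likelihood F-test, 1 fit over all 21 libraries) and limma 3.58.1, with p-values adjusted by Benjamini-Hochberg over 14801 genes. Calls needed a difference of more than 2-fold with an adjusted p below 0.05. Bounds for populations at 0 used 3 counts over the pooled libraries, and intervals of ratios are exact at 95%. Scripts were tested on simulated data. Alternatives were DESeq2 1.42.0, its size factors in edgeR, no filter, only the groups compared, library sizes without 3 abundant gene models, no fold limit, the replicate number as a block, and leaving out each library.

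The 10 genes, the wider list of 75 genes and the marker lists were chosen with earlier results of these data known. All 10 genes are named in each comparison, and of the wider list at most 4 called genes in each direction, taken from those with the largest fitted change, which depends on the prior count for genes at 0 counts in a population. Genes of similar pattern are the 3 with the highest correlation for each gene, without predicted gene models.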

Additional observations from a re-analysis of the deposited data

Results flagged for a closer look

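The difference between CD62L-high and CD62L-neg cells was not the same in GMPs and CMPs for 6 of the 10 genes, by a test of the difference itself in edgeR. CMPs were trisected by CD62L, whereas only the low and high ends of GMPs were taken, so gate and cell type cannot be told apart. Values are log2 fold changes of CD62L-high against CD62L-neg cells, and the difference is GMPs minus CMPs. Mcpt8 changed by -5.54 in GMPs and by 3.36 in CMPs, a difference of -8.90 ± 0.64 (SE, edgeR adjusted p = 4.11e-09). Prss34 changed by -10.77 and -2.36, a difference of -8.41 ± 1.18 (edgeR adjusted p = 4.13e-05). Ms4a2 changed by -8.77 and -5.82, a difference of -2.95 ± 0.61 (edgeR adjusted p = 0.00289). Hdc changed by -2.89 and -1.63, a difference of -1.25 ± 0.27 (edgeR adjusted p = 0.00364). For Cpa3 the fitted difference was -12.86 (edgeR adjusted p = 1.06e-09) and for Csrp3 -6.73 (edgeR adjusted p = 0.00160). The last pair of values depends on the prior count, since both genes had 0 counts in CD62L-high GMPs. From their bounds, the fold by which Cpa3 was lower in GMPs was at least 1078 times that in CMPs, and for Csrp3 at least 15.4 times. All 6 calls remained when any 1 library was left out.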

How the results depend on the processing

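Over 84 results of single genes and their alternatives, 2180 of 2258 pairs kept their direction and call, 51 lost the call, 20 gained it and 7 reversed. Most alternatives left out 1 of the 21 libraries, and most of those libraries belonged to neither population of a comparison. The fitted values then moved little, so the number of pairs kept is high partly for that reason and says little about how firm a call is. The number of the 10 genes called between CD62L-high and CD62L-int GMPs fell from 5 to 2 when only these groups were fitted, where 7 of the 10 genes passed the filter, and ranged from 2 to 5 over libraries left out. It was 2 without CD62L-int GMP replicate 3 or CD62L-high GMP replicate 1, and 3 without CD62L-high GMP replicate 3. Calls over all genes between these populations fell too when only they were fitted. There were 49 higher and 131 lower of 14801 genes in the main fit, and 30 and 41 of 12626 with only the groups compared. Genes of the wider list called there changed from 4 to 9 with no filter, where 68 genes were tested, and to 2 with only the groups compared. The reversals, none of them called, all came from leaving out 1 library. For Csrp3 between bulk GMPs and bulk CMPs the log2 fold change ranged from -0.39 without bulk GMP replicate 2 to 0.54. Between CD62L-high GMPs and CD62L-high CMPs, Mcpt8 ranged from -0.53 to 0.026 without CD62L-high CMP replicate 1, and Prss34 from -1.48 to 0.20 without CD62L-high CMP replicate 2. For Fcer1g, the difference of the CD62L effect ranged from -0.46 to 0.19, and was above 0 without CD62L-neg CMP replicate 3, CD62L-neg GMP replicate 2 or CD62L-high GMP replicate 2 or 3. The cause was not tested. Same-numbered libraries did not deviate together (correlations -0.07 to 0.06), so the numbers were not taken as pairs. With the replicate number as a block, the call of Cma1 between CD62L-neg and bulk GMPs was lost (edgeR adjusted p = 0.0787) and no other call of the 10 genes changed. Depth limits Fcer1a, Cma1 and, outside CD62L-neg and bulk GMPs, Prss34.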
